A study of Mus musculus with 18 samples.

Results

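The 10 genes described here encode enzymes and transporters that make and store monoamines, together with the enzymes that make tetrahydrobiopterin. They were found by gene name among the probes of a mouse microarray: 10 of the 27670 genes named on it, with 16 of its 41174 gene probes. Th, Dbh, Spr and Pcbd1 have 1 probe each, and the other 6 genes have 2. No probe was found only through an older alias. The genes belong to known pathways, but the set was chosen by someone who knew the log2 differences between thyroid areas in these data, so the 10 genes' differences between areas are given below as descriptions, with no p-value. The surgery comparisons use the same arrays, so their p-values are not independent of that choice. Genes outside the set are given with the p-values of the same fit. Their lists were also chosen with earlier results of these data known, so their calls between areas are descriptions too.

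The study captured regions of the thyroid of male C57BL/6 mice by laser from frozen sections, without surgery or after partial thyroidectomy, the removal of part of the gland. Regions came from the central or the peripheral area of the gland, which gave 5 normal central and 3 normal peripheral regions, and 5 of each area in dissected thyroid, meaning thyroid after partial thyroidectomy. For these 18 regions the labels name no allele or agent, and they state no interval since surgery, no age and no mouse of origin. Regions may therefore share a mouse, the p-values below may be too small, and the spread between samples may be partly technical. Each array carried amplified RNA of 1 region in Cy5 and, in Cy3, a common reference RNA of Swiss Webster mice pooled from several organs that do not include thyroid.

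Monoamines are made in short chains of reactions. Tyrosine hydroxylase (Th) and tryptophan hydroxylase (Tph1) add a hydroxyl group to tyrosine or tryptophan, aromatic L-amino acid decarboxylase (Ddc) removes the carboxyl group to give dopamine or serotonin, and dopamine beta-hydroxylase (Dbh) turns dopamine into noradrenaline. The vesicular transporters Slc18a1 and Slc18a2 load the products into secretory vesicles. Both hydroxylases need tetrahydrobiopterin, which Gch1, Pts and Spr make in that order from GTP. Pcbd1 regenerates the cofactor after use, and its protein also binds the transcription factor HNF1. In the thyroid, calcitonin-producing C cells are neuroendocrine cells known to decarboxylate amine precursors, and in rodents they lie mainly in the central part of each lobe. Follicular cells, or thyrocytes, make thyroid hormone.

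The probes decide what can be read for each gene, so the sequences of probes for measured and unmeasured enzymes are shown, 5′ to 3′, as the scanner files give them. Positions are on the mouse build mm7, and all of these lie on the minus strand except that of Dbh. The exon under each probe was not determined, for lack of a genome of the same build. Ddc probe 1 gave the Ddc values below. The Gch1 values came from Gch1 probe 2, and Gch1 probe 1, shown here, is compared with it. Ddc probe 2, 60882 bases away and upstream in the gene's direction, hardly exceeded background.
Ddc probe 1, chr11:11767325-11767384: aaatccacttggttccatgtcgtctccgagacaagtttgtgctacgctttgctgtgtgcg
Ddc probe 2, chr11:11828267-11828326: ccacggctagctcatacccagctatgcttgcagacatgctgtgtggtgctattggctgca
Th, chr7:139321292-139321351: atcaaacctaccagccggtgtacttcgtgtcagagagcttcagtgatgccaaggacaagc
Tph1 probe 2, chr7:42833417-42833476: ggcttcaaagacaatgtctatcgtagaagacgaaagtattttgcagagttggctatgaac
Dbh, chr2:27188872-27188931: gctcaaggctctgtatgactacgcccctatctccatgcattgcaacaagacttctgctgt
Gch1 probe 1, chr14:42490332-42490391: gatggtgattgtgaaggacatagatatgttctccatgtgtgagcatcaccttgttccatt

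Only part of the pathway could be measured. Of the 10 genes, 6 had a probe whose Cy5 signal exceeded background clearly on at least 3 arrays, by the scanner program's flag for spots well above background: Ddc, Slc18a1, Gch1, Pts, Spr and Pcbd1. The 4 others, Th, Tph1, Dbh and Slc18a2, did not reach that minimum and were not tested. The probe of Th, the rate-limiting enzyme of catecholamine synthesis, was well above background on 0 of 18 arrays, although its 10 spots were averaged, and its Cy5 intensity ran from 25 to 110. The 2 Tph1 probes exceeded background on 1 and 0 arrays, with Cy5 intensities of 34 to 117 and 23 to 92. The 2 Slc18a2 probes did so on 0 arrays, with Cy5 intensities of 33 to 140 and 19 to 80. For comparison, the median Cy5 intensity of the 153 negative-control spots ran from 23 to 95 over the arrays. The 1 Tph1 detection was on normal peripheral array 3, at a Cy5 intensity of 65. No fold difference is given for these probes.

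Dbh was well above background in Cy5 on 1 array, dissected central 4, where its Cy5 intensity was 539 its Cy3 intensity 281 and its log2 ratio 0.68. In the other groups its Cy5 intensity stayed between 37 and 113. The reference RNA was likewise dim at these probes: the Cy3 signal exceeded background on 0 arrays for Th, Tph1 and Slc18a2 and on 3 arrays for Dbh.

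**Figure D1:**
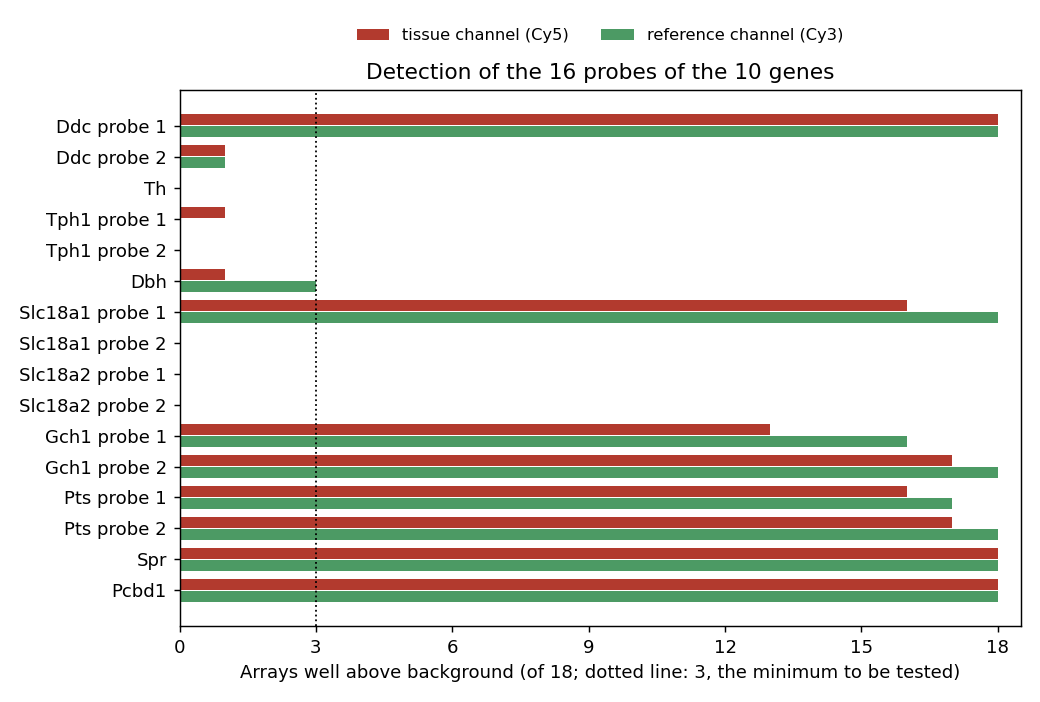
Number of the 18 arrays on which each of the 16 probes exceeded background by the scanner's flag, in tissue RNA (Cy5, red) and reference RNA (Cy3, green), with a dotted line at the 3 arrays needed for testing. Th, both Tph1 probes, Dbh and both Slc18a2 probes stayed below 3 in Cy5, while the first Ddc probe, Spr and Pcbd1 reached 18.

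Ddc was higher in the central than in the peripheral area, with or without surgery. All levels are log2 ratios of tissue over reference, so 0 means equal signals. In normal central regions Ddc stood at 1.04, 0.75, 1.58, 0.74 and 0.47, and in normal peripheral regions at -0.42, -1.40 and -1.92. In dissected central regions it stood at -0.21, -1.01, 0.72, 0.33 and 0.34, and in dissected peripheral regions at -0.92, -1.60, -2.14, -2.14 and -1.84. The normal areas did not overlap. After dissection the areas overlapped through dissected central array 2, which at -1.01 lay below dissected peripheral array 1.

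The group means of Ddc, from highest to lowest, were normal central (0.91 ± 0.42, SD, n = 5), dissected central (0.04 ± 0.67, n = 5), normal peripheral (-1.25 ± 0.76, n = 3) and dissected peripheral (-1.73 ± 0.50, n = 5). The 2 peripheral groups overlapped, and so did the 2 central groups. The central minus peripheral difference was 2.16 (SE 0.39), or 4.47-fold, in normal thyroid and 1.76 (SE 0.34), or 3.39-fold, in dissected thyroid. In normal thyroid it was 2.91 with the scanner program's own ratios and 2.97 with the authors' deposited table. It was above 0 on 3 of 3 slides that carried both normal areas (1.46 to 2.66) and on 5 of 5 slides that carried both dissected areas (0.59 to 2.86). The Cy5 intensity moved with the area, at 741 to 2511 in normal central against 72 to 166 in normal peripheral regions. The Cy3 reference overlapped, at 394 to 663 and 447 to 545. Normal peripheral arrays were also dimmer as a whole, with median net Cy5 of 30.33 to 63.42 against 58.09 to 124.4 in normal central. Median Cy5 was lower there for Spr (105 against 574) and Pcbd1 (500 against 1468) too. The raw Cy5 shift is therefore not specific to Ddc.

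Dissected central array 2 and dissected central array 1 had the lowest Ddc values of the central area. They were also among the 4 arrays with the fewest probes above background in Cy5, together with normal peripheral array 1 and dissected peripheral array 1 (24.7% to 29.5% of probes). Without these 4 arrays, the dissected central minus peripheral difference of Ddc was 2.39 (SE 0.25), a comparison chosen after the data were seen. The second Ddc probe, well above background on 1 of 18 arrays, had group means of -0.03 to 0.13 and central minus peripheral differences of 0.04 and 0.05. Its log2 ratio correlated with that of the first probe at r = 0.098 over 18 arrays. Position on the slide was the same for every array of a group, so position and group cannot be told apart.

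For Pcbd1 the dissected peripheral regions held the 5 lowest values. Its log2 ratios were 0.25, 0.07, 0.51, 0.50 and 0.38 in normal central regions and 0.37, -0.16 and 0.23 in normal peripheral regions. They were -0.11, -0.45, 0.31, 0.36 and 0.39 in dissected central regions and -0.67, -0.86, -0.70, -0.77 and -1.17 in dissected peripheral regions. The dissected peripheral arrays lay below all other arrays. The dissected peripheral mean was -0.83 ± 0.20 (SD, n = 5), against 0.15 ± 0.28 (n = 3) in normal peripheral regions. The central minus peripheral difference of Pcbd1 was 0.19 (SE 0.20) in normal thyroid and 0.94 (SE 0.17), or 1.91-fold, in dissected thyroid, where it was above 0 on 5 of 5 slides (0.41 to 1.56).

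**Figure D2:**
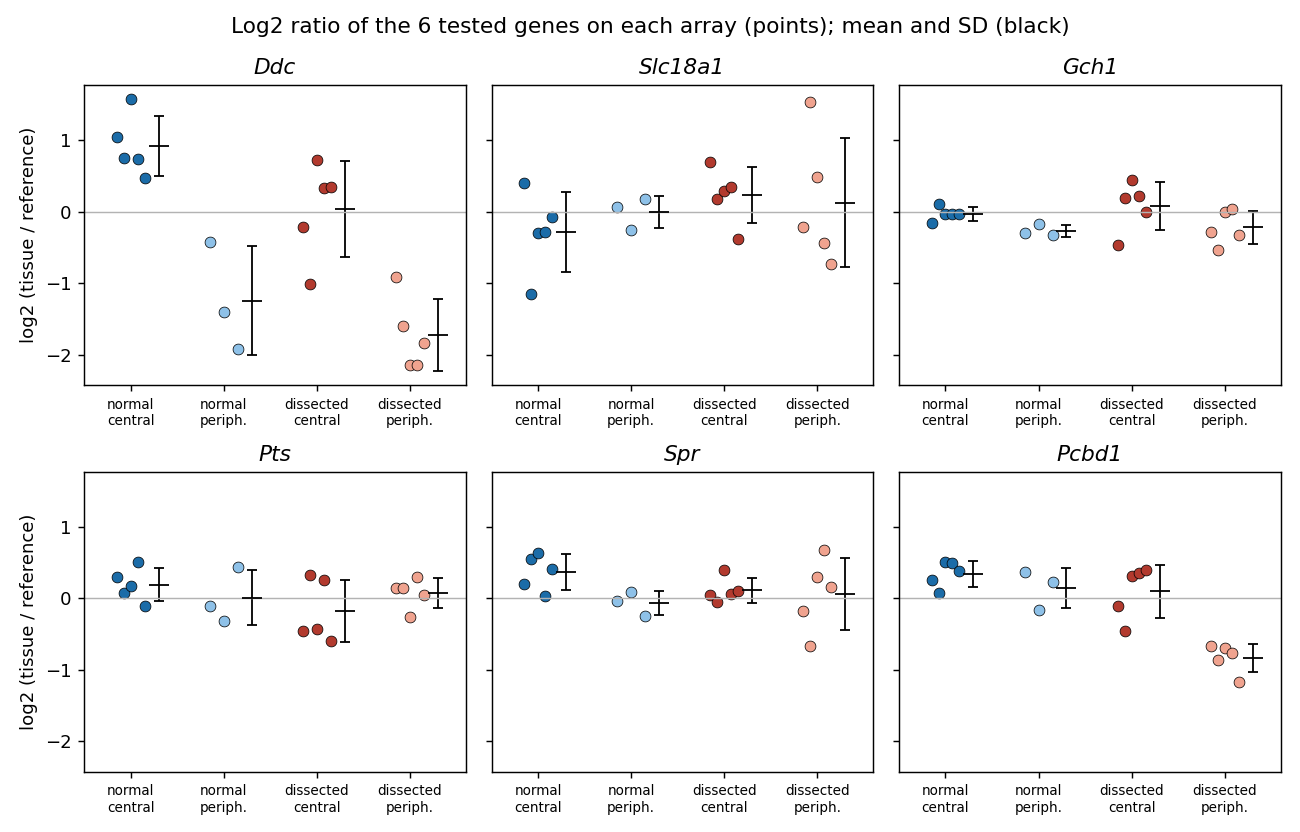
Log2 ratio of tissue over reference (y axis) on each array, by group (x axis), for the 6 tested genes, with points for arrays and black bars for the mean and SD. Ddc separates the areas, with normal central arrays at 0.47 to 1.58 and normal peripheral arrays at -1.92 to -0.42, and the Pcbd1 values of the dissected peripheral group are the lowest, at -1.17 to -0.67.

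In the fit reported, the other 4 tested genes differed less between the areas than Ddc, and in dissected thyroid less than Pcbd1. In normal thyroid Spr, Gch1 and, with the opposite sign, Slc18a1 differed more than Pcbd1 (0.19). For Gch1, the first and rate-limiting enzyme of tetrahydrobiopterin synthesis, the normal central arrays (-0.16 to 0.11) did not overlap the normal peripheral arrays (-0.33 to -0.17), and the difference was 0.23 (SE 0.17). In dissected thyroid the Gch1 areas overlapped, with a difference of 0.30 (SE 0.15). The normal Gch1 difference depended strongly on the processing, at 1.31 with the scanner program's own ratios and 0.67 from Cy5 alone, and Gch1 was below background on 1 of 3 normal peripheral arrays. Gch1 probe 1 gave 0.08 in normal thyroid. Spr, which catalyses the last step, had a difference of 0.43 (SE 0.23) in normal and 0.05 (SE 0.20) in dissected thyroid. Pts, the middle enzyme, had differences of 0.18 and -0.25, and Slc18a1 had -0.27 and 0.10. The Pts differences were 0.65 and -0.81 with the scanner program's ratios, and 0.71 and -0.79 with the authors' deposited table. The second Slc18a1 probe was well above background on 0 of 18 arrays.

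Of the 6 tested genes, 1 (Ddc) met the adjusted p threshold of 0.05 between the normal areas, where 0.28% of all genes did, and 2 (Ddc and Pcbd1) between the dissected areas, where 0.586% did. Between the areas, no overlap of arrays was seen for 2 of the 6 (Ddc and Gch1) in normal thyroid, where 4.86% of all genes did not overlap, and for 1 (Pcbd1) in dissected thyroid, where 1.67% did not. No member was called between the normal areas with the slide or the replicate number as a block, nor between the dissected areas from Cy5 alone or with only the groups compared. Because these comparisons chose the genes, nothing is read from the counts.

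The question of surgery was tested in each area with limma across all 14664 genes. In the central area, 0 of the 6 genes were called at an adjusted p below 0.05, with 0% of all genes called. The arrays of normal and dissected regions overlapped for all 6 genes, and 1% of all genes had no overlap. At an unadjusted p below 0.05 the count was 1 of 6 (Ddc), against 768 of all genes (5.24%). Ddc was lower by 0.88 (log2 difference -0.88, SE 0.34, 95% interval -1.59 to -0.17; limma adjusted p = 0.869), or 1.84-fold, and was lower on 5 of 5 slides (-1.76 to -0.13). Without dissected central array 2 the difference was -0.62 (limma adjusted p = 0.905), and without the 4 arrays of fewest detected probes it was -0.45 (limma adjusted p = 0.805). Dissected central arrays 1 and 2 also had the lowest mean C cell gene ratios of their group, at -0.02 and -0.90. The p-values may be too small, since regions may share a mouse.

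Among the tetrahydrobiopterin enzymes in the central area, Pts had a difference of -0.37 (SE 0.20; limma adjusted p = 0.988), and its second probe, 71 bases away, gave -0.33. With the scanner program's ratios the Pts difference was -0.95. Over the 18 arrays the 2 Pts probes correlated at r = 0.819. On normal peripheral array 1 the local background of the second Pts probe exceeded the spot in both channels. Spr (-0.26, SE 0.20), Pcbd1 (-0.24, SE 0.17) and Gch1 (0.11, SE 0.15) each had a limma adjusted p of 0.998. The vesicular transporter Slc18a1 had 0.51 (SE 0.35; limma adjusted p = 0.998), or 1.28 with the scanner program's ratios. Regions may share a mouse, so these p-values may be too small.

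In the peripheral area, 0 of the 6 genes were called (0% of all genes were), and 1 of 6 had an unadjusted p below 0.05 (Pcbd1), against 1222 of all genes (8.33%). Pcbd1 differed by -0.98 (SE 0.20, 95% interval -1.39 to -0.57), a level 1.98-fold lower after dissection, with a limma adjusted p of 0.306. Its unadjusted p was 9.44e-05, and 2 of all genes had a smaller one. The arrays of the groups did not overlap, as for 4.21% of all genes, and the difference was negative on 3 of 3 slides (-1.05 to -0.70). Cy3 intensities overlapped, at 514 to 683 in normal and 229 to 1133 in dissected regions. Cy5 intensities overlapped too, at 189 to 593 in normal and 137 to 768 in dissected regions. Before normalization, neither channel alone separated the groups. The difference was -1.29 to -0.84 over the alternative settings other than leaving out an array, and it remained uncalled under each. With 3 normal peripheral regions that may share mice with other groups, this p-value may be too small. The area differences known when the set was chosen use the same dissected peripheral arrays. The p-value and rank of Pcbd1 are therefore not independent of that choice.

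The other 5 genes had peripheral differences of -0.48 to 0.13. Ddc had -0.48 (SE 0.39, 95% interval -1.30 to 0.34; limma adjusted p = 0.77), and was lower on 3 of 3 slides (-0.50 to -0.20). The Ddc difference was -0.07 without normal peripheral array 1, -0.82 without normal peripheral array 3 and -0.17 with array weights. Slc18a1 had 0.13 (SE 0.41), Spr 0.13 (SE 0.23), Pts 0.06 (SE 0.23) and Gch1 0.05 (SE 0.17), with limma adjusted p of 0.957, 0.917, 0.966 and 0.972. The Gch1 difference was 1.02 with the scanner program's ratios and 1.05 with the authors' deposited table (limma adjusted p = 0.479 and 0.473). The intervals were widest for Slc18a1, from -0.73 to 1.00, and for Ddc. These p-values, too, may be too small for the reason given above.

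**Figure D3:**
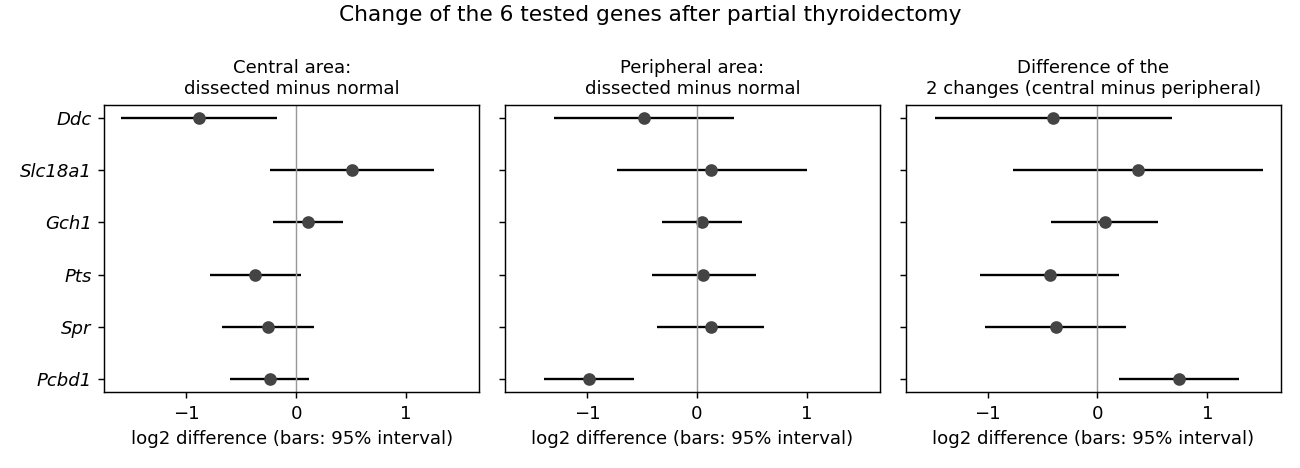
Log2 difference after partial thyroidectomy (points) with the 95% interval (bars) for the 6 tested genes, in the central area, in the peripheral area, and as the difference of the 2 changes. The interval of Ddc lies below 0 in the central area (-1.59 to -0.17) and that of Pcbd1 in the peripheral area (-1.39 to -0.57), and neither was called after adjustment over all genes.

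Whether surgery affected the areas differently was tested as an interaction, the central minus the peripheral change. None of the 6 genes was called (0% of all genes were), while 1 of 6 (Pcbd1) had an unadjusted p below 0.05, against 852 of all genes (5.81%). The interaction was 0.74 for Pcbd1 (SE 0.26, 95% interval 0.20 to 1.29; limma adjusted p = 0.79). It was -0.40 for Ddc (SE 0.51; limma adjusted p = 0.893) and -0.43 for Pts (SE 0.30; limma adjusted p = 0.80). For Spr it was -0.38, for Slc18a1 0.37 and for Gch1 0.07, with limma adjusted p of 0.82, 0.908 and 0.967. These p-values rest on regions that may share mice. The interaction is also the dissected minus the normal area difference, so it is not independent of the choice of genes.

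Cell markers moved with the same groups. The mean log2 ratio of 18 measured C cell and neuroendocrine genes, of 20 listed, was 0.53 to 1.27 in normal central, -1.37 to -0.74 in normal peripheral, -0.90 to 0.82 in dissected central and -1.82 to -1.48 in dissected peripheral regions. Of these 18 genes, 7 were called higher in the central area of normal thyroid and 9 in that of dissected thyroid. Of all genes, 0.28% and 0.586% were called, in either direction. The list was chosen with earlier results known, so these counts are descriptions. After surgery limma called 0 in either area. At an unadjusted p below 0.05 there were 2 in the central and 5 in the peripheral area, beside 5.24% and 8.33% of all genes. Their median difference after surgery was -0.60 in the central area, with 17 of 18 below 0, beside -0.01 for all genes. It was -0.41 in the peripheral area, with 4 of 18 above 0, beside 0.01 for all genes. The part of C cell content in the Ddc and Pcbd1 results was not tested, and in such bulk regions fewer cells of a type and less RNA per cell cannot be told apart. The 10 measured thyrocyte genes of 12 listed had medians of 0.05 to 0.15 in the 4 groups, and limma called 0 of them in any comparison (0 or 1 at an unadjusted p below 0.05). Thyroglobulin (Tg), the thyroid hormone precursor, had group means of 1.01 to 1.68, above the reference.

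Across the 10 central regions, Ddc followed the C cell gene mean (Pearson r = 0.948, permutation p = 0.00043, adjusted p = 0.00516 over 12 relations; Spearman rho = 0.782, permutation p = 0.00995, adjusted p = 0.0597). Without the 2 arrays farthest from the median, normal central 3 and dissected central 2, r was 0.784. Within the 2 scan days it was 0.929 (n = 4 arrays) and 0.942 (n = 6 arrays). Dissected central 1, kept in the r of 0.784, lay apart at -0.02 in the C cell mean and -0.21 in Ddc. The other arrays kept had 0.50 to 0.82 and 0.33 to 1.04, so the r of 0.784 may rest on dissected central 1. The first scan day held neither dissected central 1 nor dissected central 2. It did hold normal central 3, the highest array in both measures. The relation without dissected central 1 as well was not tested. Pcbd1 had r = 0.871 (permutation p = 0.00404, adjusted p = 0.0191) but rho = 0.491 (permutation p = 0.156, adjusted p = 0.313). Its r was 0.544 without those 2 arrays. It was 0.337 within the first scan day (n = 4 arrays) and 0.904 within the second (n = 6 arrays), so the relation depended on which arrays were included. Spr had r = 0.722 (permutation p = 0.0097, adjusted p = 0.0291) and rho = 0.855 (permutation p = 0.00295, adjusted p = 0.0354), with r = 0.575 without those 2 arrays. In the peripheral area the normal and dissected regions did not overlap in the C cell gene mean, so no pooled relation is given there. The 12 relations of the adjustment include the peripheral ones. The central relations also pool normal and dissected regions, and the permutations were not kept within a group. Their p-values therefore do not separate a relation within a group from a difference between groups. Regions may share a mouse, and the members and the C cell list were chosen with earlier results known. These p-values are thus descriptions.

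**Figure D4:**
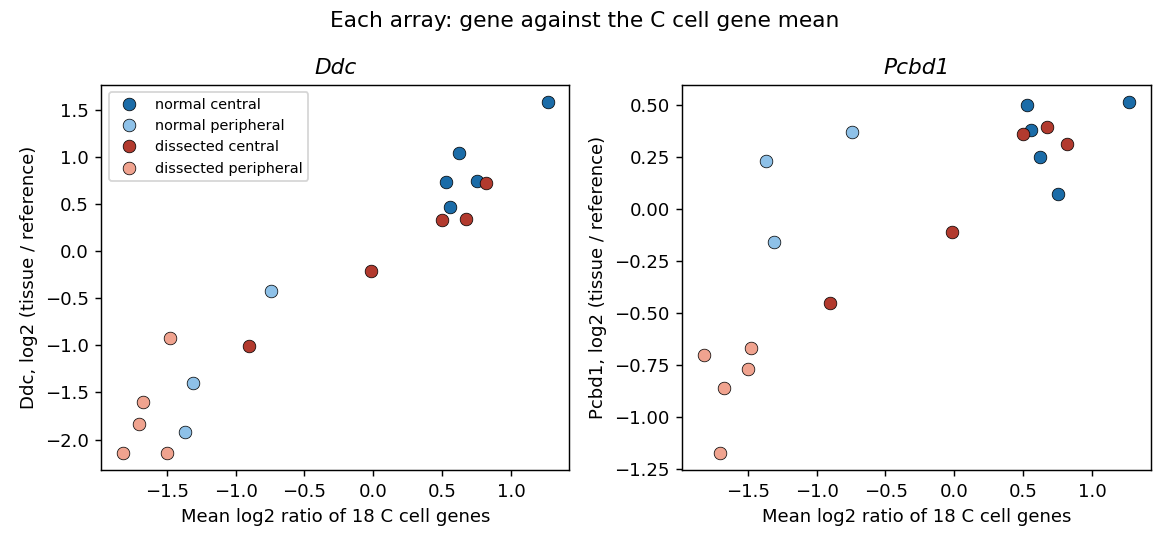
Log2 ratio of Ddc (left) and Pcbd1 (right) on each of the 18 arrays (y axis) against the mean log2 ratio of 18 C cell and neuroendocrine genes (x axis), coloured by group. Over the 10 central arrays r was 0.948 for Ddc and 0.871 for Pcbd1, and the dissected peripheral arrays sit lowest on both axes for Pcbd1.

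Other cells that make or store amines were also checked. Of 11 mast cell genes 6 were tested, and their mean ratio was -0.18 to 0.69 in dissected central regions against -0.42 to -0.02 in dissected peripheral regions and -0.28 to 0.12 in normal central regions. Between the dissected areas the 6 genes had differences of -0.58 to 1.75. Mcpt4, a mast cell protease, was called higher in the dissected central area (1.75; limma adjusted p = 0.00986). After surgery in the central area Mcpt4 had 1.34 and Cpa3, a mast cell carboxypeptidase, 1.24 (limma adjusted p = 0.692 and 0.732). These were the highest values of the 6 genes, which ran from -0.19 to 1.34 with a median of 0.34 and 4 of 6 above 0. Limma called 0 of the 6 genes, with 3 at an unadjusted p below 0.05, beside 5.24% of all genes. The part of mast cells in the results of the 10 genes was not tested. Of 16 sympathetic neuron and nerve genes 7 were tested, and Elavl4, an RNA-binding protein of neurons and neuroendocrine cells, was called in the same comparison (2.53; limma adjusted p = 0.00746). Of 5 parathyroid genes 3 were tested. One of them, Chga, is also in the C cell list. It was called higher in the dissected central area (3.50, with a limma adjusted p of 0.00334). Parathyroid hormone (Pth) was below the reference on most arrays but reached 3.99 on 1 normal central array. The highest Chga value, 2.60, was also in the normal central group. The part of parathyroid tissue in the C cell gene mean was not tested. Regions may share a mouse here too, and these lists were chosen with earlier results known.

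By correlation of log2 ratios over all 18 arrays, among 14495 genes without missing values, the genes most like Ddc were Gfra4 (r = 0.973), the transcript named TC1418772 in the files (r = 0.97), Snhg11 (r = 0.969), Abcc8 (r = 0.963) and Foxa2 (r = 0.962). Gfra4 is a receptor subunit for a neurotrophic factor and Abcc8 a subunit of ATP-sensitive potassium channels. The nearest gene was Tmem117 for Pts (r = 0.836), Pkig for Gch1 (r = 0.809), Grcc10 for Spr (r = 0.804) and Tex10 for Slc18a1 (r = 0.801). Among the tested members, Ddc and Pcbd1 were the most alike (r = 0.788), Gch1 and Spr had r = 0.581, and Slc18a1 and Spr had r = -0.605. All these correlations share the group structure and the arrays, and are descriptions.

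Of 13 genes that recycle tetrahydrobiopterin, restrain its synthesis or depend on it, 9 were tested, and limma called 0 in any of the 5 comparisons (0 or 1 at an unadjusted p below 0.05). Their median was 0.22 between the normal areas, with 8 of 9 above 0, beside 0.01 for all genes. Dnajc12, a co-chaperone of the aromatic amino acid hydroxylases, had 1.08 between the normal areas (limma adjusted p = 0.139) and 0.35 between the dissected areas. Gchfr, the feedback regulator of Gch1, had 0.37 and Qdpr, which recycles the cofactor, 0.32, while Nos1, a nitric oxide synthase that needs it, had -0.54 (limma adjusted p = 0.825, 0.704 and 0.78). After surgery in the central area the values were 0.66 for Nos1, -0.53 for Dnajc12, -0.49 for Gchfr and -0.36 for Pcbd2, a paralogue of Pcbd1.

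Of 22 genes for amine breakdown, uptake and further conversion, 17 were tested and limma called 0 in any comparison (1 to 3 at an unadjusted p below 0.05). Aldh2 and Aldh1a1, aldehyde dehydrogenases, had 0.90 and 0.72 between the normal areas (limma adjusted p = 0.382 and 0.696), and Hdc, which makes histamine, had 0.47. Of the monoamine oxidases, between the dissected areas Maob had 0.89 and Maoa -0.39 (limma adjusted p = 0.673 and 0.86). After surgery Aldh2 had 0.62 in the peripheral area (limma adjusted p = 0.61), and Maob had 0.52 in the central area. Of 22 amine receptor genes 7 were tested and limma called 0, also at an unadjusted p below 0.05, with differences of -0.22 to 0.48 over the 5 comparisons. These p-values, too, rest on regions that may share mice.

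**Figure D5:**
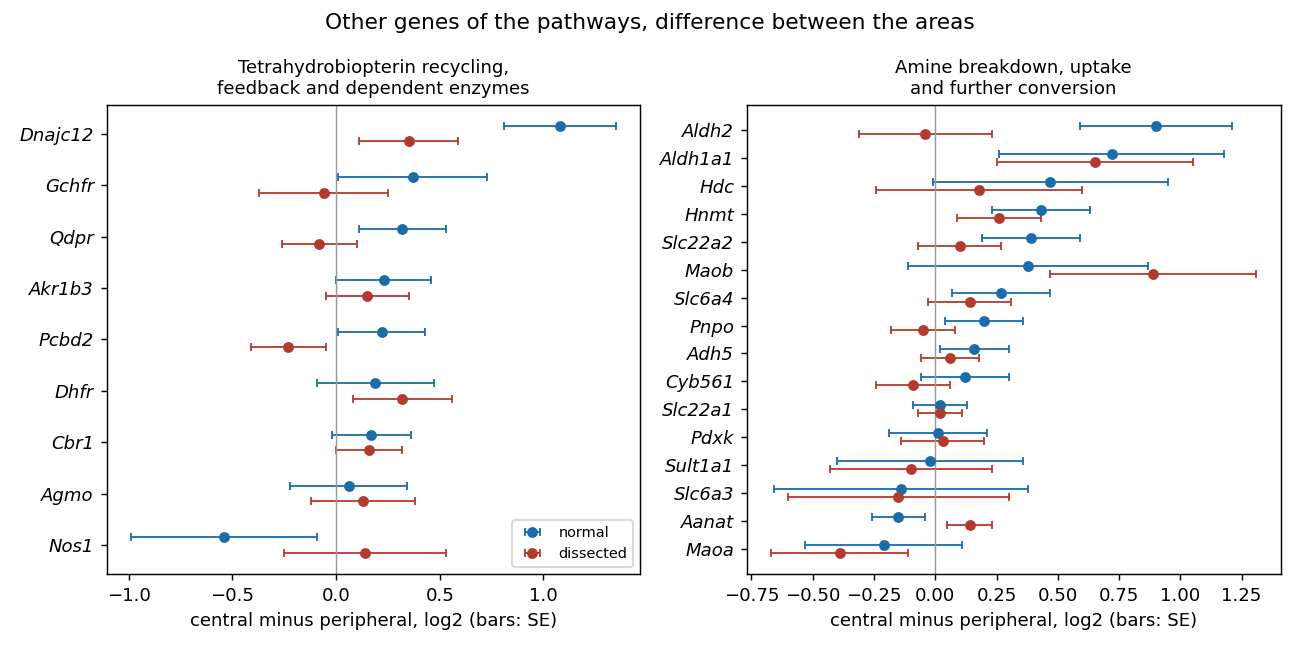
Central minus peripheral log2 difference (x axis) with its SE (bars) in normal (blue) and dissected (red) thyroid for tested genes of tetrahydrobiopterin recycling and dependence (left, 9 genes) and of amine breakdown and uptake (right, 16 of the 17 tested genes). Dnajc12 at 1.08 and Aldh2 at 0.90 have the highest values of their panels in normal thyroid, and none of these genes was called.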

How the data were processed

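The members and gene lists were chosen with earlier results of these data known. Spot and background intensity in Cy5 and Cy3 come, per the file headers, from Agilent Feature Extraction 9.5.1.1; version 8.5.1.1 stands in the submitters' processing notes. The log10 ratio of Cy5 over Cy3 in the deposited files is that program's output per the file headers. The authors also deposited a table of linear ratios, whose processing is not given in the sources used here. Both served as alternatives.

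From the scanner intensities, normexp (offset 50) and within-array loess were applied with limma 3.58.1 in R 4.3.3, leaving out non-uniform spots. The filter on Cy5 signal above background (at least 3 arrays) kept 19082 of 41174 gene probes, and the brightest stood for each of 14664 genes. Names came from the RefSeq table by accession for 22951 probes, by current symbol for 6659, by older symbol for 3109 and from the files for 8455. One model of the 4 group means used all 18 arrays, with Benjamini-Hochberg adjustment over the 14664 genes and a threshold of 0.05. The fit was tested on simulated data. Permutation tests of correlations drew 100000 permutations in scipy 1.17.1. Named genes were all members, any listed gene called, the 4 largest differences per pathway list and pairwise comparison, and the nearest genes by correlation; some of these are not reported here. The number of arrays limits the precision.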

Additional observations from a re-analysis of the deposited data

How the results depend on the processing

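Over the differences of the 6 genes after surgery and their interactions, 555 of 570 alternative values kept their direction and side of the threshold, and 15 changed sign. Pcbd1 in the central area was 0.01 and Pts in the peripheral area -0.01 without the 4 arrays of fewest detected probes, an alternative chosen after the data were seen. In the peripheral area Slc18a1 was -0.12 from Cy5 alone and Gch1 was 0.00 with array weights, but 0.37 from Cy5 alone, 1.02 with the scanner ratios and 1.05 with the authors' table. The Gch1 interaction was -0.97 with the scanner ratios, -0.34 from Cy5 alone, -1.01 with the authors' table and -0.06 with the mean of all kept probes. Leaving out 1 array in turn gave peripheral ranges of -0.82 to -0.07 for Ddc, -0.22 to 0.35 for Slc18a1, -0.02 to 0.12 for Gch1, -0.10 to 0.28 for Pts and -0.03 to 0.31 for Spr, and -0.03 to 0.20 for the Gch1 interaction. Pcbd1 in the peripheral area was not called under any alternative, with limma adjusted p of 0.195 to 0.718, or 0.0921 to 0.609 on leaving out 1 array. The count of members called between the normal areas, 1 in the fit reported, was 0 with no filter on dim probes, with the slide as a block, and with the replicate number as a block. It was 0 to 1 on leaving out 1 array, with Ddc lost when any of normal central arrays 1 to 4, or normal peripheral array 2 or 3, was left out. The count between the dissected areas, 2 in the fit reported, was 1 with the scanner ratios, the authors' table or array weights, and 0 from Cy5 alone or with only the groups compared. It was 1 to 2 on leaving out 1 array, with 1 without dissected central 3, 4 or 5 or dissected peripheral 3 or 5. The cause of these shifts was not tested. Same-numbered arrays of different groups had correlations of -0.071 to 0.286 (24 pairs, median 0.0675, 9 over 0.1). Arrays of other numbers had -0.24 to 0.136 (96 pairs, median -0.0125, 7 over 0.1), and 13 of 18 arrays correlated best with their own number. Most same-numbered pairs also shared a slide, so number and slide cannot be told apart. The numbers were not taken to pair the regions, and whether they do was not tested. Th and Slc18a2 were at background on every array, and Tph1 and Dbh on all but 1 array each in Cy5, which limits what can be said of them.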

Other observations

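The 2 Ddc probes had unlike detection, and the same held for many genes. Of 1433 RefSeq transcripts with exactly 2 probes more than 5000 bases apart on one strand, 1171 had probes detected on different numbers of arrays. The downstream probe was well above background on more arrays for 986 of these (84.2%). Where one probe was detected on at least 16 arrays and the other on at most 2, in 456 genes, the downstream probe was the detected one for 428 (93.9%). The part of this in the Ddc, Tph1, Slc18a1 and Gch1 values was not tested.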
